A study of Homo sapiens with 4 samples.

Results

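8 genes of T cell receptor signalling were examined for their response to silencing of the long non-coding RNA HMRHL in K562 cells: ZAP70, CD247, SKAP1, SASH3, UBASH3A, CD5, LAG3 and FOXP3. They were chosen by symbol from the table that the authors deposited of protein-coding genes called differentially expressed. Each of them fills 1 row, and they are 8 of the 742 symbols listed there. K562 is an established human line of chronic myelogenous leukaemia with erythroid and megakaryocytic potential, which the labels call a lymphoblast; it is not a T cell line. HMRHL corresponds to mrhl of the mouse and is transcribed from within the PHKB gene. The cells were transfected with HMRHL siRNA or with scramble siRNA, and total RNA was taken 36 hours later, with 2 libraries in each of the 2 groups and 4 in all.

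The table gives 1 fold change per gene and no level, count, p-value or value per library, so the values below have no replicate error, their depth is unknown, and no test was made of them. They were read as log2 of HMRHL siRNA over scramble siRNA, which the table does not state; if the ratio were the other way round, every higher would read lower and every lower higher. Because a listed fold change was the condition for a gene to be examined, the values are a description of genes already selected by the authors. Without levels, it cannot be told whether a large fold change rests on few reads. The labelled cell type could not be checked against marker levels, and fewer transcripts per cell cannot be told apart from fewer cells that carry them.

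In T cells, the antigen receptor has no enzymatic activity of its own. The kinase LCK phosphorylates the cytoplasmic tails of the CD3 chains and of the zeta chain encoded by CD247, and the kinase ZAP70 docks on these phosphorylated tails and phosphorylates the scaffolds LAT and SLP-76. Adaptors then carry the signal to calcium release, gene activation and integrin adhesion, while surface receptors such as CD5 and LAG3 and intracellular proteins such as UBASH3A dampen it. FOXP3 is the transcription factor that defines regulatory T cells, in which receptor signalling and cytokine expression are restrained.

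The genes were listed in opposite directions: 2 of 8, ZAP70 and SKAP1, as higher with HMRHL siRNA, and 6 of 8, CD247, SASH3, UBASH3A, CD5, LAG3 and FOXP3, as lower. Over all 742 symbols of the authors' deposited table, 30.6% were listed as higher and 69.4% as lower, so the split of the 8 genes is near that of the whole table and is no result about them. In the order of their values in the authors' deposited table, the genes ran from ZAP70 at 2.69 and SKAP1 at 2.28 through LAG3 at -1.28, UBASH3A at -1.34, SASH3 at -1.40, CD247 at -1.48 and FOXP3 at -1.65 to CD5 at -2.74, all on the log2 scale. The 4 middle genes lay within 0.20 of each other on that scale, and without replicate values their order cannot be told.

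**Figure D1:**
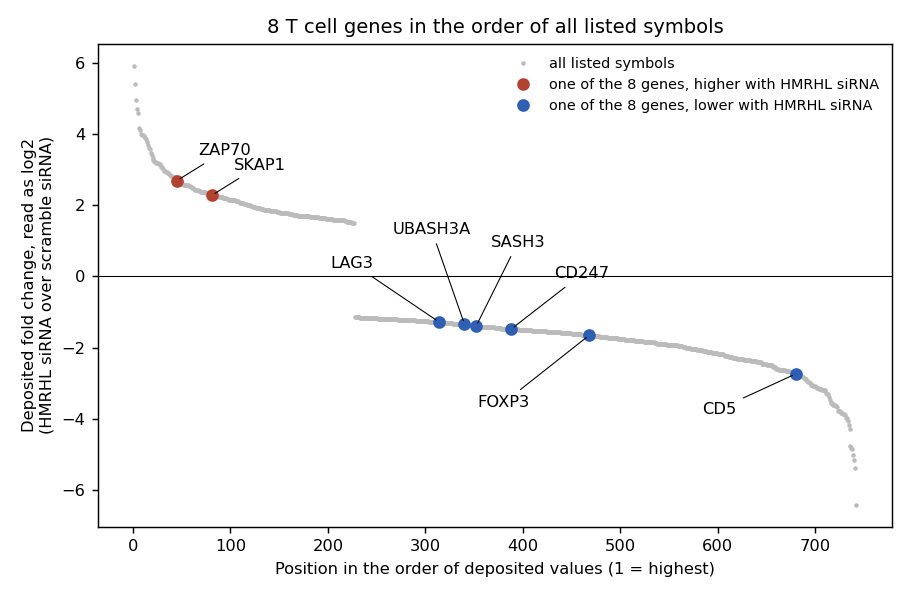
Each point is 1 of the 742 symbols of the authors' deposited table, placed by its position in the order of values (horizontal axis) and by its fold change read as log2 of HMRHL siRNA over scramble siRNA (vertical axis); larger points are the 8 genes. ZAP70 (2.69) and SKAP1 (2.28) sit among the higher genes, 4 genes from -1.28 to -1.48 sit at the shallow start of the lower ones, and CD5 (-2.74) lies deepest of the 8.

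The receptor chain and its kinase stood on opposite sides. CD247, the zeta chain that carries most of the docking sites of the receptor complex, was listed as lower at -1.48 in the authors' deposited table, which is 2.79-fold if read as log2. ZAP70, the kinase that docks on that chain, was listed as higher at 2.69, or 6.45-fold, in the authors' deposited table. The difference between both values in the authors' deposited table is 4.17 on the log2 scale. No listed value lies between -1.15 and 1.50, so any listed pair of opposite sign lies well apart. Both genes were chosen with their values known, so the difference is a description only. ZAP70 held place 45 of the 227 higher symbols and CD247 place 355 of the 515 lower ones in the authors' deposited table, so ZAP70 lay in the upper part of its direction and CD247 in the shallow part of its own. No other annotated gene overlaps the exons of ZAP70 or CD247. LCK, which acts before ZAP70, and SYK, its close relative in B cells, were not listed.

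The adaptors were split. SKAP1, which links the receptor to integrin adhesion through its partner FYB1, was at 2.28 (4.86-fold) in the authors' deposited table, and LAT2, a transmembrane adaptor related to LAT that is used mainly by B cells and mast cells, was at 2.05. SASH3, a lymphoid adaptor needed for T cell development and also called SLY1, was at -1.40 (2.63-fold) in the authors' deposited table. SLA, an adaptor that promotes removal of receptor chains from the cell surface, had the lowest value of any gene of the T cell lists at -3.90 (14.9-fold) in the authors' deposited table. UBASH3A, also called STS-2, a suppressor of receptor signalling that binds ubiquitin, was at -1.34 (2.53-fold) in the authors' deposited table. Of the 33 adaptors and ubiquitin regulators, 2 were thus listed as higher and 3 as lower (15.2%, beside 3.71% of all annotated protein-coding symbols), but 3 of these 5 are among the 8 chosen genes, so that share is partly set by the choice. The 28 that were not listed include LAT, LCP2 (SLP-76), GRAP2 and FYB1.

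The 2 listed inhibitory receptors and the 3 listed transcription factors were lower, beside 69.4% lower among all symbols of the authors' deposited table; CD5, LAG3 and FOXP3 are among them by choice. CD5, a scavenger receptor family protein that restrains receptor signalling in T cells, was at -2.74 (6.67-fold) in the authors' deposited table, place 63 of the 515 lower symbols. LAG3, an inhibitory receptor that binds MHC class II, was at -1.28 (2.43-fold) in the authors' deposited table, place 429 of the lower symbols. These were the 2 listed genes among 25 costimulatory and inhibitory receptors, a share of 8.0%. Beside it stand 3.71% of all annotated protein-coding symbols in the authors' deposited table. Both receptors are chosen genes and the list was drawn up with them known, so the share is no result about the list. CD28, CTLA4, PDCD1 and the others of that list had not been selected. FOXP3 was at -1.65 (3.14-fold) in the authors' deposited table. Of the 26 factors on its list, STAT4, which transmits interleukin signals toward type 1 helper cells, and ZBTB32, a repressor expressed in activated lymphocytes, were also listed as lower, at -2.46 and -2.38 in the authors' deposited table. The 3 listed factors are 11.5% of that list, beside 3.71% of all annotated protein-coding symbols, and FOXP3 is a chosen gene. The exons of STAT4 overlap those of AC067945.3 on the opposite strand.

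Several of the lower values are smaller in size than any higher value. The smallest positive value of the authors' deposited table was 1.50 and the negative value nearest to 0 was -1.15, so genes entered at a smaller change when lower. LAG3, UBASH3A, SASH3 and CD247, 4 of the 6 lower genes, had values nearer to 0 than any higher gene, as had 34.2% of all lower symbols in the authors' deposited table. At an equal minimum of 1.50, 2 genes higher (ZAP70, SKAP1) and 2 lower (FOXP3, CD5) were left, beside 40.1% higher among all 566 symbols at that minimum in the authors' deposited table. At least 4-fold values were given for ZAP70, SKAP1 and CD5. The median size of the 6 lower genes was 1.44 on the log2 scale, against 1.71 for all lower symbols of the authors' deposited table.

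**Figure D2:**
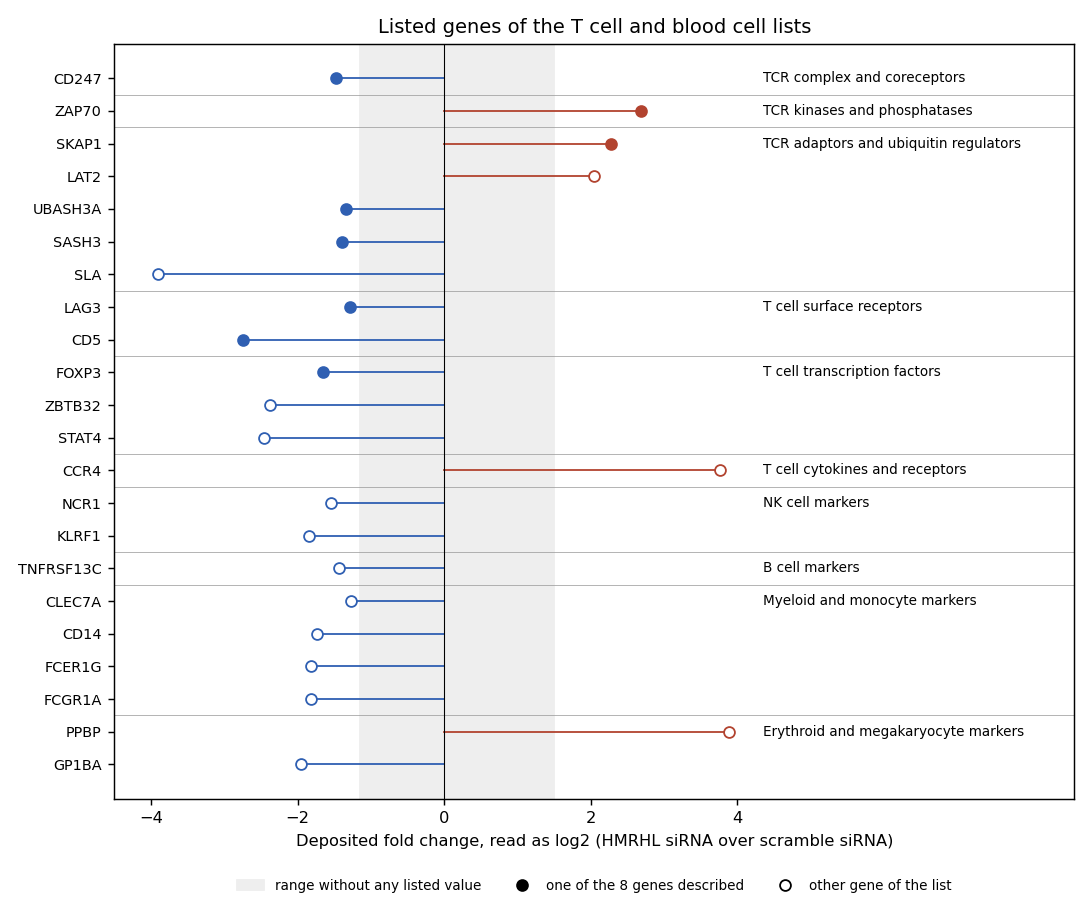
Each row is 1 gene of the T cell and blood cell lists that the authors' deposited table holds, with its fold change read as log2 of HMRHL siRNA over scramble siRNA on the horizontal axis; filled points are the 8 genes described, open points other genes of the lists, and the grey band from -1.15 to 1.50 is the range in which the table has no value. The kinase ZAP70 (2.69) and the chemokine receptor CCR4 (3.77) point to higher, the inhibitory receptors CD5 and LAG3 and the 3 transcription factors to lower, and the adaptors to both sides.

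Most of the pathway was not in the table. The T cell lists hold 169 genes in 7 groups, from the receptor to transcription factors and cytokines, and 13 of them were listed, 4 as higher and 9 as lower. Of these 13, 8 are the genes chosen here. The lists were drawn up with them known, so the share of 7.69% is no result about T cell genes. Among the other 161 genes 5 were listed, 2 as higher and 3 as lower, which is 3.11%, beside 3.71% of all 19936 annotated protein-coding symbols in the authors' deposited table. Leaving out the 8 chosen genes removes listed genes only, which lowers this share by construction. It therefore cannot show how T cell genes stand beside all genes. Of the receptor complex and coreceptors only CD247, a chosen gene, was listed of 9 genes (11.1%), and CD3D, CD3E, CD3G, CD4, CD8A and CD8B were not. None of the 21 genes that carry the signal to calcium, protein kinase C and actin was listed, where that share of all genes would give 0.8. Of 40 cytokine, cytotoxic and cytokine or chemokine receptor genes 1 was listed (2.5%), the chemokine receptor CCR4, at 3.77 (13.6-fold) in the authors' deposited table. A gene that was not listed had not passed the authors' selection, and may still have differed between HMRHL siRNA and scramble siRNA. Without levels, a gene that is unchanged cannot be told apart from one expressed too little to be called, or not at all.

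Markers of other blood cells were listed too, and none of them is among the 8 chosen genes. These lists too were chosen with earlier results of these data known, so their shares are no result about these cell types. The shares of the lists were 20.0% for myeloid, 11.1% for NK, 8.0% for erythroid and megakaryocyte and 5.26% for B cell genes, beside 3.71% of all annotated protein-coding symbols in the authors' deposited table; at that share 0.7 to 0.9 genes of each would be listed, and the differences were not tested. Of the NK cell list, NCR1 and KLRF1, both activating NK receptors, were at -1.55 and -1.85 in the authors' deposited table, 2 of 18 genes. Of the B cell list, the BAFF receptor TNFRSF13C was at -1.43 in the authors' deposited table, 1 of 19 genes. Of the myeloid list, 4 of 20 genes were listed as lower in the authors' deposited table. They were CLEC7A, a receptor for fungal glucans, at -1.27, the endotoxin coreceptor CD14 at -1.73, and the Fc receptor genes FCER1G and FCGR1A, both at -1.82 in the authors' deposited table. FCGR1A has a near-identical copy elsewhere in the genome, and its exons overlap those of AC243772.2 and HIST2H2BF on the opposite strand. FCER1G encodes the Fc receptor gamma chain, a signalling subunit related to the zeta chain. Of 25 erythroid and megakaryocyte genes, the platelet chemokine PPBP was at 3.89 and the platelet glycoprotein GP1BA at -1.96 in the authors' deposited table. The exons of GP1BA overlap those of CHRNE on the opposite strand. The globin genes were not listed. All 7 listed NK, B and myeloid genes were lower, as were CD247, SASH3, UBASH3A, CD5, LAG3 and FOXP3, beside 69.4% lower among all symbols. ZAP70 and SKAP1 were on the other side, and the erythroid and megakaryocyte list, left out of these 7, had 1 gene on each side. Lower genes entered at a smaller change, and the values of TNFRSF13C and CLEC7A were smaller in size than any higher value. The part of these 7 genes in the values of the T cell genes was not tested.

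**Figure D3:**
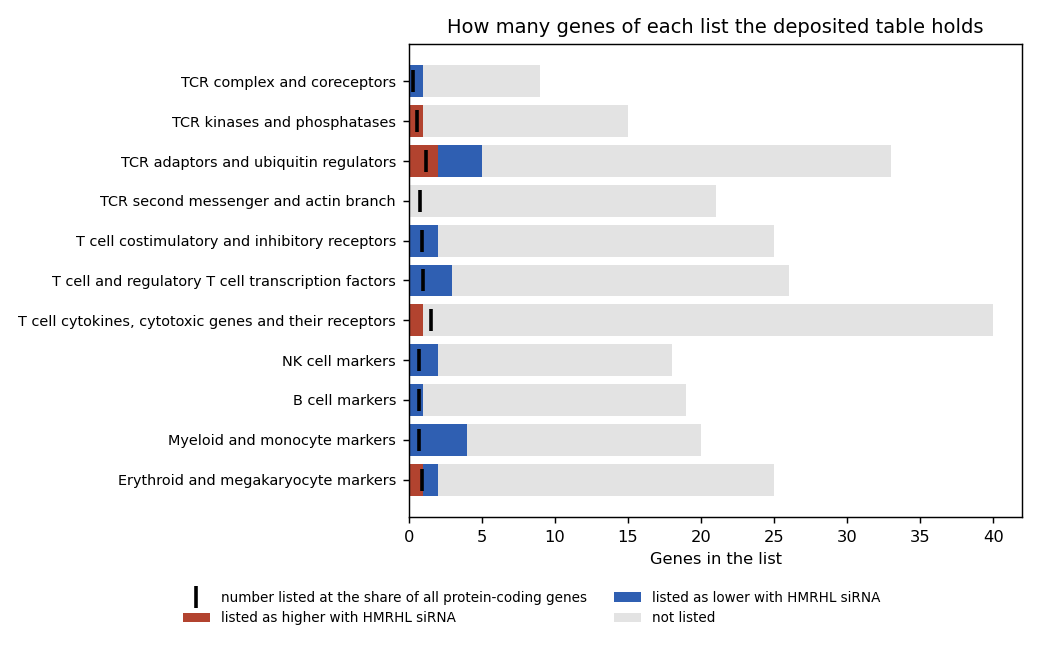
Bars give the number of genes in each list (horizontal axis), split into those listed as higher and as lower with HMRHL siRNA in the authors' deposited table and those not listed; the black tick is the number expected at the 3.71% of all annotated protein-coding symbols that are listed. The adaptor list has the largest count (5 of 33, of which 3 are chosen genes), the myeloid list the largest share (4 of 20, none of them chosen), and the second messenger list has none of 21. All lists were chosen with earlier results of these data known, so the shares are no result about them.

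The 8 genes share no locus. In GENCODE release 29 on GRCh38 they lie on 7 chromosomes, and none is on chromosome 16, which holds PHKB. CD247 occupies 167430640 to 167518610 of chromosome 1 (minus strand) and ZAP70 97713560 to 97739862 of chromosome 2 (plus strand). CD5 lies on chromosome 11 from 61102395 to 61127852, LAG3 on chromosome 12 from 6772512 to 6778455 and UBASH3A on chromosome 21 from 42403447 to 42447681, all on the plus strand. SKAP1 occupies 48133440 to 48430275 of chromosome 17 (minus strand). On chromosome X, FOXP3 lies from 49250436 to 49264826 on the minus strand and SASH3 from 129779979 to 129795201 on the plus strand. The shortest of these genes is LAG3 (5.9 kb) and the longest SKAP1 (296.8 kb), and their median span was 25.9 kb, against 30.2 kb over the listed and 27.1 kb over all protein-coding symbols.

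Their neighbours were mostly not listed. Of the 16 nearest non-overlapping protein-coding genes, 1 on each side of each gene, 1 was in the authors' deposited table: CACNA1F, a calcium channel subunit of the retina, which lies 17 kb from FOXP3 and was at 1.87, opposite in sign to FOXP3 at -1.65. CD6, which lies beside CD5 and encodes a related receptor, and CD4, which lies beside LAG3 and encodes a related protein, were not listed. The next listed gene to LAG3 was GNB3, a G protein beta subunit 61 kb away at -1.60 in the authors' deposited table. For the other 6 genes the nearest listed gene lay 1264 kb to 3229 kb away. Exon overlap with a gene on the opposite strand was annotated for 1 of the 8, FOXP3, which shares 91 bases with CCDC22, against 37.5% of the listed protein-coding symbols and 33.8% of all. SASH3 shares 118 exonic bases with AL023653.1 on its own strand. The libraries were made with a stranded kit, but no source used here says whether reads were counted by strand. None of the 8 has a near-identical copy (at least 95% identity over at least 50% of its longest transcript).

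The RefSeq promoter table (GRCh38.p14) gave entries for ZAP70, CD247, SASH3 and FOXP3, and their upstream stretches are shown because the docking partners ZAP70 and CD247 were listed in opposite directions and the others with CD247. Each starts 250 bases before the most upstream RefSeq start and ends there or where an annotated exon of the gene begins, and is written 5′ to 3′ on the strand of the gene. For ZAP70 there were 3 promoter entries, of which only the most upstream was used, and for each other gene 1. Capitals mark matches, on either strand, of 6 short motifs: the ETS core CAGGAA (which reads TTCCTG on the opposite strand), the GATA core GATAA (read there as TTATC), the RUNX core TGTGGT, the E-box CACGTG, the AP-1 motif TGANTCA and the TATA box TATAAA. The motifs were chosen after the sequences had been read, and no matches overlap one another. ETS core here stands for the exact letters CAGGAA only. Other stretches with GGAA or TTCC, as in ZAP70 and FOXP3, are not marked.
ZAP70 (chr2:97713326-97713559, plus strand): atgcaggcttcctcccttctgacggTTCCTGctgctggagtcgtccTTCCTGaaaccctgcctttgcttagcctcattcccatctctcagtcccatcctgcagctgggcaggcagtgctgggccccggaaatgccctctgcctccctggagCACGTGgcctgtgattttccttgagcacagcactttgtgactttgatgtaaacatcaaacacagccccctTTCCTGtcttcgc
CD247 (chr1:167518611-167518779, minus strand): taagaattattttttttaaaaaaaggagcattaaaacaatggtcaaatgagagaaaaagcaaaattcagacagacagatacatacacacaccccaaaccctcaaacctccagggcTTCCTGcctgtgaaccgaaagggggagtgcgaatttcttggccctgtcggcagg
SASH3 (chrX:129779699-129779948, plus strand): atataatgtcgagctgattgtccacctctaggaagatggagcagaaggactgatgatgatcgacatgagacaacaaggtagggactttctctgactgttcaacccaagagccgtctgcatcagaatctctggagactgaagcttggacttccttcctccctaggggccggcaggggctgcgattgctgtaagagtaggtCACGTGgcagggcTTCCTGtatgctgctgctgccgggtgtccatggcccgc
FOXP3 (chrX:49264827-49264960, minus strand): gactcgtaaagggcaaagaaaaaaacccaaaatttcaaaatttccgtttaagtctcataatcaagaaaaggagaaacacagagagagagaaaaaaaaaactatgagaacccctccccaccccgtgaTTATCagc

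The letters CAGGAA (ETS core) occurred in the 250 bases before the starts of ZAP70 (4 matches), CD247 (2 matches) and SASH3 (1 match). Of these, the ZAP70 match 13 bases and the CD247 match 51 bases before the start fall in annotated exons and are not printed. The letters CAGGAA did not occur before FOXP3, and 24.1% of all 35116 promoters in the table hold them in the same window. Because the motifs were chosen after the sequences had been read, no motif count here, beside the share of all promoters, is a result about the 4 genes. Other GGAA stretches were not counted. The E-box CACGTG was found once each in ZAP70 and SASH3, beside 6.34% of all promoters. FOXP3 alone of the 4 held the GATA core (20.4% of all promoters) and a TATA box 31 bases before the start (10.7% of all promoters), which falls in an annotated first exon and is not printed. The RUNX core and the AP-1 motif, held by 11.0% and 6.57% of all promoters, were found in none of the 4. ZAP70, listed as higher, and CD247 and SASH3, listed as lower, thus hold the same letters CAGGAA. The G and C content of these windows was 55.2% for ZAP70, 45.6% for CD247, 54.4% for SASH3 and 39.6% for FOXP3, and CpG dinucleotides numbered 5, 3, 8 and 10 in that order, against medians of 58.0% and 11 over all promoters. These matches describe letters only and do not show binding.

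**Figure D4:**
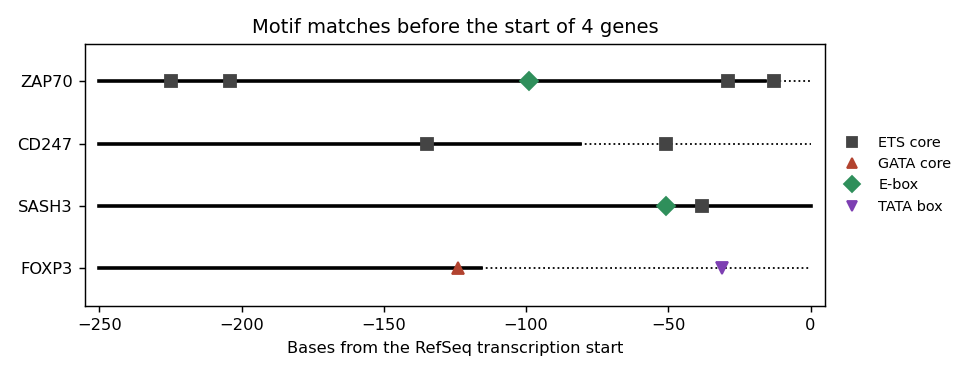
Lines show the 250 bases before the RefSeq start of 4 genes (horizontal axis, bases from the start), solid where the sequence is printed and dotted where it lies in an annotated exon; symbols stand at the first base of each motif match. ZAP70 has 4 matches of CAGGAA (ETS core), CD247 has 2, SASH3 has 1 and FOXP3 has none. Other GGAA stretches are not shown.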

How the data were processed

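RNA of 4 K562 libraries (2 HMRHL siRNA, 2 scramble siRNA) was sequenced with a stranded kit, per the labels' protocols. The submitters' processing notes name Bowtie2, TopHat, Cufflinks, Cuffdiff, SAMtools 1.3.1 and Trim Galore 0.4.4, with the builds GRCh38 and hg38, and the sources used here give neither their settings nor the selection threshold. The deposited column holds 1 fold change per gene, read here as log2 because both signs occur and values have at most 6 significant digits, as Cuffdiff prints them; a signed linear scale or the opposite direction is possible. Counts and levels per library were not analysed here, so depth is unknown and no test, interval or replicate error could be made.

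The 831 rows were reduced to 742 symbols, since 37 symbols filled several rows with 1 value each. Symbols were matched to GENCODE release 29, and near-identical copies sought with BLAST 2.17.0. The 8 genes, the 11 gene lists and the alternatives were chosen with earlier results of these data known. Named are the 8 genes, every listed gene of the lists (2 genes were taken out of the lists and are not reported here), and the nearest listed gene or neighbours. Python 3.11.15, numpy 2.4.6, pandas 2.3.3 and matplotlib 3.10.9 were used.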

Additional observations from a re-analysis of the deposited data

How the results depend on the processing

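With the direction read as stated, the 8 genes kept their sign under each other alternative that kept them. This was fixed in advance, because those alternatives only leave out genes, count rows or rescale sizes. Read in the opposite direction, an alternative added after seeing the data, all signs turn by construction: 6 of the 8 genes would be higher and 2 lower, and 9 genes of the T cell lists higher and 4 lower, with ZAP70 at -2.69, SKAP1 at -2.28, LAG3 at 1.28, UBASH3A at 1.34, SASH3 at 1.40, CD247 at 1.48, FOXP3 at 1.65 and CD5 at 2.74. The count of lower genes among the 8 went from 6 to 2 at an equal minimum in both directions and to 1 at a minimum of 4-fold, while the 2 higher genes stayed; in the T cell lists, lower genes went from 9 to 5 and to 4. Both settings remove genes by size, and the first removes lower genes only. If the deposited values were signed linear fold changes, their log2 would be 1.43 for ZAP70, 1.19 for SKAP1, -0.36 for LAG3, -0.42 for UBASH3A, -0.48 for SASH3, -0.56 for CD247, -0.72 for FOXP3 and -1.45 for CD5. Counting every row, translating older symbols, and leaving out genes with near-identical copies or with exon overlap on the opposite strand (which drops FOXP3) moved no count by more than 1.5 times. No paired analysis was possible because the table holds 1 value per gene for both groups together, and for the same reason leaving out replicates, other normalizations, pseudocounts and low-value filters were not run.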
